A study of Mus musculus with 6 samples.

Results

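A set of 10 genes of the fucosylation machinery were followed in leukemic blasts with and without Tet2: Fut8, the fucosyltransferases Fut4, Fut7, Fut10 and Fut11, the protein O-fucosyltransferases Pofut1 and Pofut2, and the suppliers of the sugar donor Slc35c1, Gmds and Fpgt. These 10 genes, of 53458 with a transcript in the files, were picked by symbol, and 9 of them held enough reads to be tested among 22170 genes. The blasts came from 6 mice, 1 RNA-seq library each. Mice 19, 23 and 24 were labelled Cebpa-/p30 Tet2+/+ and mice 5, 7 and 8 Cebpa-/p30 Tet2-/-. All blasts carried a Cebpa allele that makes only the short p30 isoform of C/EBPα, opposite an allele deleted by Mx1-Cre. In the Tet2-/- mice the same recombinase, induced with poly(I:C), had also deleted floxed Tet2. The mice were lethally irradiated recipients of this bone marrow. Donor-derived cells that lacked the T-cell, B-cell and erythroid surface markers CD3, B220 and Ter119 were sorted from the marrow once an animal was sick, so age at sampling was not fixed by the design, and recipient cells were kept out by the CD45.2 gate.

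Fucose is added to glycoproteins from the donor GDP-fucose, which is made de novo from GDP-mannose by Gmds and Tsta3 (now Gfus), or salvaged from free fucose by Fuk (now Fcsk) and Fpgt, and is carried into the Golgi by Slc35c1. Fut8 is the only enzyme that attaches core fucose, in α1,6-linkage, to the innermost GlcNAc of N-glycans, a modification known to tune receptors such as those for TGF-β and EGF and the integrins. Fut7 and Fut4 add α1,3-linked fucose to outer branches and thereby finish the sialyl Lewis x structures with which myeloid cells bind selectins. Pofut1 places O-fucose on the EGF-like repeats of Notch receptors, Pofut2 places it on thrombospondin repeats, and Fut10 and Fut11 have been described as O-fucosyltransferases of EMI domains. TET2 oxidizes the methyl group of cytosines, mainly at CpG sites. DNA methylation was not measured in these libraries. The study measured it by bisulfite sequencing in blasts of this model. Among the genes lower in all of its data sets, Fut8 included, it reported a gain of promoter methylation for Gata2 only.

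The libraries held 13036643 to 32855343 estimated reads. Levels are given as CPM, reads scaled to a common library size with TMM factors of 0.867 to 1.11, where mice are compared. Where genes are compared they are given as TPM, which corrects for transcript length. With edgeR's quasi-likelihood test, 10 genes passed an adjusted p of 0.05 as lower in Tet2-/- mice (0.0451% of those tested) and 0 as higher (0.0%), whereas 1135 genes were lower and 664 higher at an unadjusted p below 0.05 (5.12% and 3% of those tested), and DESeq2 on the same counts called 325 lower and 59 higher. Summed over all its exons, Tet2 itself stood at 73.6, 79.5 and 98.4 CPM in mice 19, 23 and 24 and at 111, 79.4 and 96.7 CPM in mice 5, 7 and 8. This sum also counts reads from exons outside the deleted part, so it did not check the genotype labels.

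Fut8 lies on the plus strand of chr12:77238125-77476338 (GRCm38, ENSMUSG00000021065) and has 7 annotated transcripts. Fut8-202, Fut8-201 and Fut8-203 share the same coding exons of 1725 bases, which encode 575 amino acids, and differ only in untranslated exons. Fut8-201 starts 917 bases after Fut8-202, while Fut8-203 starts 23 bases before it and carries 1 more untranslated exon. Fut8-207 is annotated as a processed transcript without a coding sequence and starts 150.7 kb further into the gene. The RefSeq promoter windows (GRCm38.p6, 250 bases before to 50 after a start) show how unlike these starts are. The stretches before 3 starts are shown because the Fut8 transcripts are compared by start further on. CpG dinucleotides are in capitals.

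Fut8 start 21 bases before Fut8-203, chr12:77237854-77238103, plus strand: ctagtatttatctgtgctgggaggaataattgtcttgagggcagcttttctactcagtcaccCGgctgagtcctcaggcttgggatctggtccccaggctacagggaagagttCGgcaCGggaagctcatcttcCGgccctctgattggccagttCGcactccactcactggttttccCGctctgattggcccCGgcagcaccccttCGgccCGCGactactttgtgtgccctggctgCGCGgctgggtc

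Fut8 start 74 bases before Fut8-206, chr12:77238489-77238738, plus strand: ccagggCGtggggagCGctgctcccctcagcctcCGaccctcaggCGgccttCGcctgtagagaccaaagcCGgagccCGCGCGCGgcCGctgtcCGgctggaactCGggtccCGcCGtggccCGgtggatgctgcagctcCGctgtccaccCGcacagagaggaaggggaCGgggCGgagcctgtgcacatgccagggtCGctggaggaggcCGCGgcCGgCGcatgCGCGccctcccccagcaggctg

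Fut8-207 start, chr12:77388614-77388863, plus strand: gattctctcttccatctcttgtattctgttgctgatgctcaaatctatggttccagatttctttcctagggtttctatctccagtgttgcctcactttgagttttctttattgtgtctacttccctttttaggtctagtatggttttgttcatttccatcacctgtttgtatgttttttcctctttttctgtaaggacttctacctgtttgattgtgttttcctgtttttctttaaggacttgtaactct

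The first stretch held 12 CpG, the second 27 and the third 0. Over the full windows of 300 bases the counts were 18, 39 and 0, against a median of 7 in 32851 windows of this length, and the second window had more CpG than 95.6% of them. The RefSeq window at the start of Fut8-205 had 4. Among the other genes, Pofut1 and Gmds (45 each), Pofut2 (32), Slc35c1 (21 and 14), Fut4 (18) and Fut11 (15) had CpG-rich windows, and the Fut7 windows were poorer (8 and 1). In all, 8 of the 10 genes matched a window. On either strand the first Fut8 window held 2 matches to CCAAT and 1 to GATAA, which are found in 37.4% and 25.4% of all windows, and none of the Fut8 windows held TTGCGCAA, the palindrome recognized by C/EBP dimers. Of all windows 0.183% held that palindrome, among them the first Fut7 window (chr2:25422992-25423291). These matches are letters in a window and were not tested as binding sites.

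Fut8 was the 1 gene of the 9 whose level did not overlap between the genotypes. It was at 80.5, 174 and 179 CPM in Tet2+/+ mice 19, 23 and 24, and at 66.8, 57.4 and 56.9 CPM in Tet2-/- mice 5, 7 and 8. Every Tet2-/- mouse was below every Tet2+/+ mouse, but mouse 19 lay nearer to the Tet2-/- mice than to its own group. The means were 145 ± 55.5 and 60.3 ± 5.61 CPM (SD, n = 3 each), a log2 fold change of -1.26 (SE 0.31, 95% interval -1.99 to -0.53) or 2.40-fold. This had an unadjusted p of 0.00461 and an adjusted p of 0.375 in edgeR's quasi-likelihood test and thus did not pass the threshold over all genes. The exact two-sided permutation test gave p = 0.1, the smallest value that 3 against 3 mice allow. DESeq2 called Fut8 lower both on the same counts (log2 fold change -1.25, adjusted p = 0.0266) and on length-scaled values (-1.26, adjusted p = 0.0369), where it called 325 genes lower each time (1.8% and 1.75% of those with an adjusted p). The study had singled out Fut8 as lower in these same mice, in its cell model and in patients. The difference in these mice is therefore a description and no independent evidence. In sorted bulk cells, fewer Fut8-expressing cells and less Fut8 RNA per cell cannot be told apart.

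**Figure D1:**
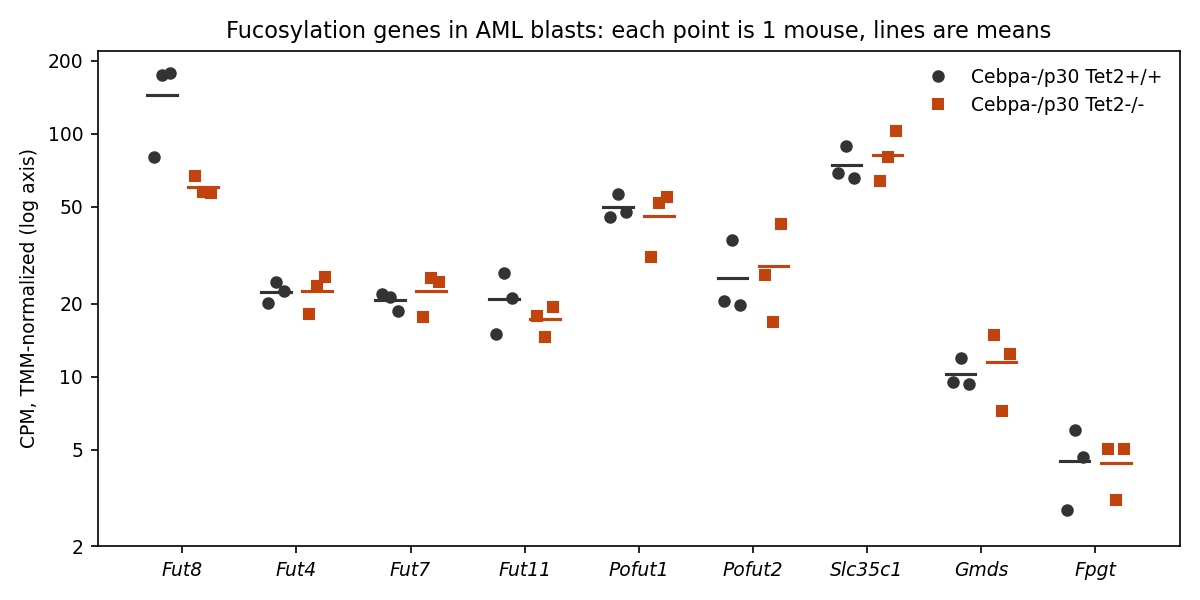
TMM-normalized CPM (log axis) of the 9 tested fucosylation genes, with 1 point per mouse (black circles, Cebpa-/p30 Tet2+/+; orange squares, Cebpa-/p30 Tet2-/-; n = 3 each) and a line at each mean. The Tet2-/- points of Fut8 lie at 56.9 to 66.8 CPM, below the lowest Tet2+/+ point at 80.5 CPM, and the points of the other 8 genes overlap.

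Some marker genes also did not overlap between the genotypes. Of 59 marker genes of the sorted blasts and of other blood cells, 52 averaged 1 CPM or more, of which 6 were lower and 1 was higher in every Tet2-/- mouse, against 7.71% and 8.24% of all such genes. The summed CPM of 5 basophil and mast cell genes ranged from 287 to 374 in Tet2+/+ and from 26.6 to 110 in Tet2-/- mice. Most of it came from Cpa3, a mast cell protease also made by myeloid progenitors (63.1 to 96.9% of the sum in a library), while Fcer1a was below 1 CPM in every library. Of these 5 genes, 1 (Cpa3) was lower in every Tet2-/- mouse. The sum of 4 plasma cell genes ranged from 135 to 184 and from 29.1 to 50.1 CPM, mostly from Jchain, with Tnfrsf17 below 1 CPM in every library. Of these 4 genes, 1 (Jchain) was lower in every Tet2-/- mouse. Of the 6 genes of immature myeloid cells, which mark the sorted blasts, 2 (Mpo and Cd34) were lower in every Tet2-/- mouse, and their sum overlapped (6127 to 7013 against 4953 to 6760 CPM). Itga2b, a megakaryocyte integrin chain, was at 39.5, 43.8 and 23.7 CPM against 13.7, 21.7 and 6.95 CPM, but the other 3 genes of its list overlapped, as did the list's sum (24.5 to 45.5 against 9.17 to 26.0 CPM). Siglech, of plasmacytoid dendritic cells, was at 2.09, 2.41 and 1.62 CPM against 0.316, 0.386 and 0.434 CPM, and here too the other 3 genes and the sum overlapped (74.1 to 192 against 56.8 to 204 CPM). The 1 marker that was higher in every Tet2-/- mouse was Ly6c2, of monocytes, with 1623, 1428 and 1049 CPM against 2993, 2124 and 2495 CPM. The other 5 monocyte and macrophage genes overlapped, as did the sum of all 6 (1581 to 2759 against 2427 to 4572 CPM). The 9 mature neutrophil genes overlapped between genotypes but differed between mice, from 10665 CPM in mouse 23 to 113639 CPM in mouse 7. The part of these cells in the Fut8 difference was not tested.

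The remaining fucosyltransferases showed no such separation. Fut7 was at 21.9, 21.3 and 18.7 CPM in Tet2+/+ mice and at 17.6, 25.4 and 24.6 CPM in Tet2-/- mice. Fut4 was at 20.2, 24.5 and 22.5 CPM and at 18.1, 23.6 and 25.8 CPM, respectively. For both α1,3-fucosyltransferases the genotypes overlapped, with log2 fold changes of 0.13 (95% interval -0.37 to 0.63) and 0.01 (-0.48 to 0.49). Differences of the size seen for Fut8 lay outside both intervals. Fut11 was at 14.95, 26.7 and 21.0 CPM and at 17.8, 14.6 and 19.4 CPM, with a log2 fold change of -0.27 (-0.89 to 0.35). Fut10 had at most 1 read in any library and was not tested. A count of 0, as in mice 19, 23, 7 and 8, allows up to 3 reads, for counting error only. In these libraries that equals 0.161 to 0.193 CPM. Of the fucosyltransferases outside the 10 genes, Fut2 averaged 0.83 CPM and Fut1, Fut9 and Sec1 were below the count filter.

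The protein O-fucosyltransferases overlapped as well. Pofut1 was at 45.3, 56.4 and 47.8 CPM in Tet2+/+ and at 31.03, 52.1 and 54.9 CPM in Tet2-/- mice (log2 fold change -0.12, 95% interval -0.69 to 0.46). Pofut2 was at 20.5, 36.6 and 19.7 CPM and at 26.3, 16.8 and 42.7 CPM (0.16, -0.77 to 1.09). Pofut2 varied more between mice of 1 genotype than between the genotype means of 25.6 and 28.6 CPM.

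The donor side was likewise without a difference beyond the spread. Slc35c1, the Golgi GDP-fucose transporter, was at 69.1, 89.0 and 66.0 CPM in Tet2+/+ and at 63.8, 80.2 and 102 CPM in Tet2-/- mice (log2 fold change 0.14, 95% interval -0.39 to 0.66). Gmds, which starts de novo synthesis, was at 9.51, 11.9 and 9.29 CPM and at 14.8, 7.20 and 12.4 CPM (0.16, -0.58 to 0.91). Fpgt, the last step of salvage, was at 2.81, 6.05 and 4.65 CPM and at 5.03, 3.09 and 5.05 CPM (-0.04, -0.98 to 0.91). Fpgt rested on 47 to 159 reads a library, and its log2 fold change had a standard error of 0.40.

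Counted together, 0 of the 9 tested fucosylation genes passed the adjusted threshold in edgeR in either direction, against 0.0451% of all genes as lower. With DESeq2 1 did (Fut8, as lower), which called 1.8% of genes lower on the same counts and 1.75% on length-scaled values. At an unadjusted p below 0.05, 1 was lower and 0 higher, against the 5.12% and 3% of all genes. Of the 9 genes 1 was lower in every Tet2-/- mouse than in every Tet2+/+ mouse, and 0 were higher in every one, against 7.71% and 8.24% of the 13839 genes that averaged 1 CPM or more. The median log2 fold change of the 9 genes was 0.01 and that of all tested genes 0.00.

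Corrected for length, Fut8 was the most abundant of the 10 genes in Tet2+/+ mice 23 and 24 (42.6 and 42.5 TPM) but not elsewhere. It averaged 34.2 ± 14.6 TPM in Tet2+/+ and 12.9 ± 1.25 TPM in Tet2-/- mice. Slc35c1 followed at 20.01 ± 3.63 and 19.9 ± 5.92 TPM and exceeded Fut8 in 4 of 6 mice, so this pair did not keep 1 order. By the mean over all mice, next came Fut7 (14.6 TPM), Pofut2 (8.22), Pofut1 (5.52), Gmds (4.51), Fut4 (3.001), Fut11 (2.98), Fpgt (1.44) and Fut10 (0.00846). In Tet2-/- mice Fut7 averaged 14.9 TPM and exceeded Fut8 in mice 7 and 8 (14.8 and 17.5 against 11.9 and 12.6 TPM). Slc35c1 was above Fut7, Fut7 above Pofut2, and Fut11 above Fpgt in 6 of 6 mice. The place of Fut7 rested on its noncoding transcript Fut7-205, which had 11.5 to 41.2 reads a library. Without it, a choice made after seeing the data, Fut7 averaged 6.39 TPM and exceeded Pofut2 in 2 of 6 mice. Pofut2 exceeded Pofut1 in 4 mice, Pofut1 exceeded Gmds in 5, Gmds exceeded Fut4 in 5 and Fut4 exceeded Fut11 in 3, so that Fut4 and Fut11 could not be ordered.

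As a share of the summed TPM of 11 fucosyltransferases, Fut8 made up 39.0, 46.8 and 58.1% in Tet2+/+ mice 19, 23 and 24 and 33.9, 27.7 and 22.8% in Tet2-/- mice 5, 7 and 8. These shares do not depend on the scaling between libraries, and they did not overlap. Fut7 made up 23.6, 22.98 and 15.9% against 29.2, 34.6 and 31.6%, also without overlap, although its own TPM overlapped (10.5 to 21.0 against 12.3 to 17.5). When shares of estimated counts were taken instead, those of Fut8 still did not overlap (39.4, 51.3 and 57.8% against 37.5, 29.9 and 25.3%), whereas those of Fut7 did (10.7, 6.26 and 6.03% against 9.85, 13.2 and 10.96%). Fut4 was higher in every Tet2-/- mouse by count shares (9.86, 7.19 and 7.26% against 10.2, 12.3 and 11.5%) and overlapped by TPM shares. With Fut7-205 left out of the sum, the TPM shares of Fut7 overlapped as well (14.98, 9.16 and 9.44% against 14.6, 19.1 and 15.8%), those of Fut8 did not (43.4, 55.1 and 62.6% against 40.8, 34.3 and 28.1%), and those of Fut11 no longer overlapped (5.81, 5.71 and 5.09% against 7.43, 6.19 and 6.59%). Without Fut8, the fucosyltransferases summed to 27.1, 48.6 and 30.6 TPM in Tet2+/+ and 28.0, 30.9 and 42.8 TPM in Tet2-/- mice, which overlap. No test was made of these shares.

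**Figure D2:**
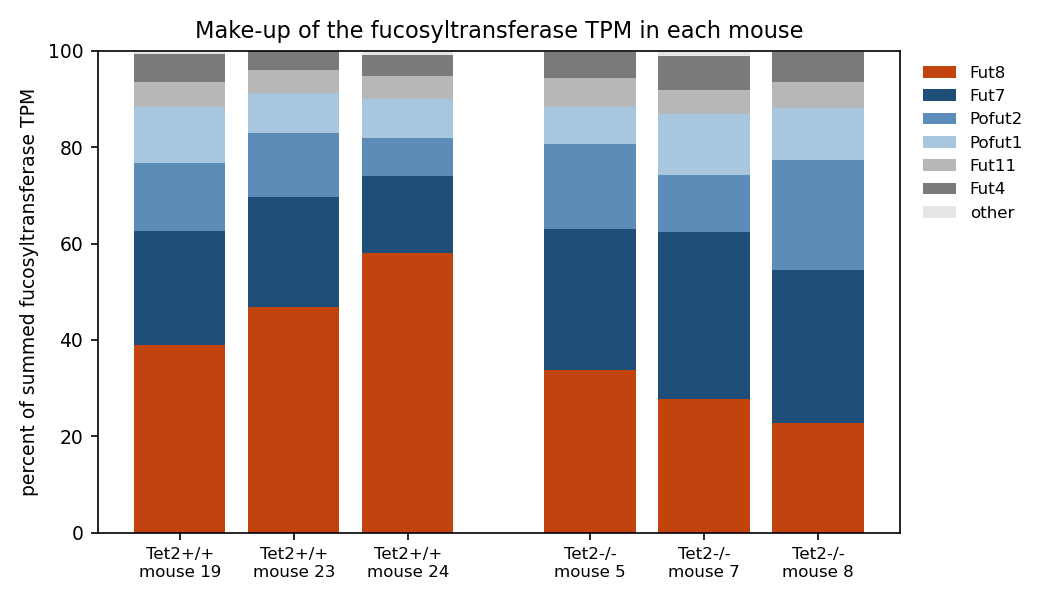
Stacked bars of the percent of the summed fucosyltransferase TPM held by each gene, 1 bar per mouse, with no error bars since each bar is 1 library. The orange Fut8 segment spans 39.0 to 58.1% in Tet2+/+ and 22.8 to 33.9% in Tet2-/- mice, and the dark blue Fut7 segment 15.9 to 23.6% and 29.2 to 34.6%, a separation that was absent without Fut7-205.

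The transcripts of Fut8 were compared next, to ask whether its difference was tied to 1 start. Fut8-202, the most abundant, was at 12.7, 27.9 and 27.3 TPM in Tet2+/+ mice 19, 23 and 24 and at 9.75, 8.14 and 9.67 TPM in Tet2-/- mice 5, 7 and 8. Fut8-201 was at 1.33, 4.24 and 4.64 TPM and at 0.629, 1.02 and 0.523 TPM. Both coding transcripts were lower in every Tet2-/- mouse, and on the log2(TPM + 1) scale they differed by -1.14 (SE 0.32) and -1.26 (SE 0.39). Fut8-203, the third coding transcript, overlapped at 0, 1.63 and 1.85 TPM and 0.914, 1.25 and 0.688 TPM, with a difference of -0.01 (SE 0.44). Fut8-207, the transcript from the CpG-free start, was at 2.65, 7.94 and 7.98 TPM and at 2.72, 1.05 and 1.49 TPM. It overlapped only through mice 19 and 5, with a difference of -1.31 (SE 0.44). Fut8-205 also starts inside the gene and had reads in mouse 19 alone. Summed, the pair was at 3.10, 7.94 and 7.98 TPM against 2.72, 1.05 and 1.49 TPM, without overlap. Lower values were thus seen at more than 1 annotated start, although the split between transcripts is estimated.

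The retained-intron transcripts were rare. Fut8-204 was at 0.0579, 0.697 and 0.458 TPM against 0.0349, 0.0747 and 0.0644 TPM (difference -0.38, SE 0.19, where the added 1 TPM exceeds every value and so shrinks the difference). Fut8-206, which has the largest share of unique sequence among the Fut8 transcripts, was at 0.166, 0.233 and 0.291 TPM against 0.260, 0.326 and 0.191 TPM (difference 0.03, SE 0.12). Its genotypes overlapped. Fut8-205 was above 0 in mouse 19 alone (0.450 TPM) and was not tested.

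In limma, 0 of the 6 tested Fut8 transcripts passed the adjusted threshold, and the adjusted p-values of Fut8-202, Fut8-201 and Fut8-207 were 0.641, 0.713 and 0.757. Among all 61991 transcripts 0.021% were called lower and 0.00968% higher. At an unadjusted p below 0.05, 3 Fut8 transcripts were lower (0.0115, 0.0167 and 0.0219), against 3.61% of all transcripts. edgeR on the transcript counts called 0 of the 6 and 0 of all 66893 transcripts it tested, of which 1907 were lower and 1625 higher at an unadjusted p below 0.05. Of the 6 transcripts, 2 were lower in every Tet2-/- mouse, against 7.58% of all transcripts with a mean of at least 0.1 TPM.

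**Figure D3:**
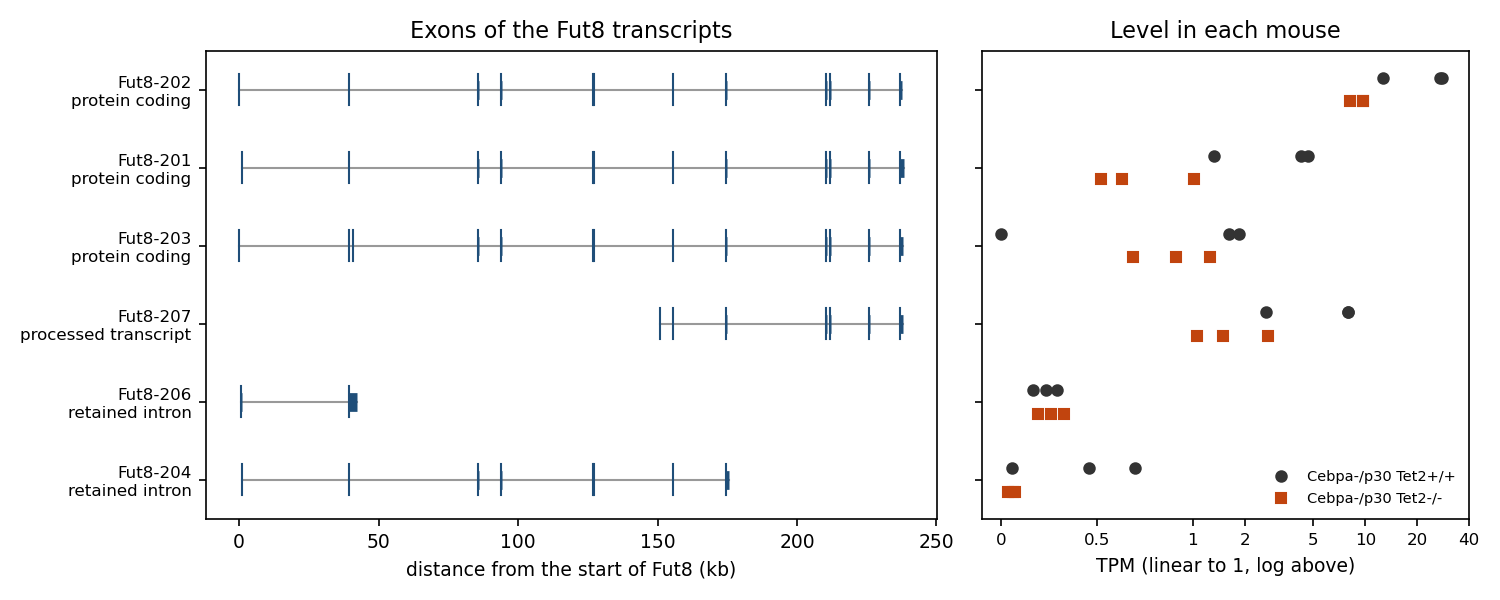
Left, exons (blue ticks, wider where the exon is long) of 6 Fut8 transcripts by distance in kb from the gene start. Right, TPM of each in each mouse (linear axis up to 1, log above; black circles, Tet2+/+; orange squares, Tet2-/-). Fut8-202, at 8.14 to 27.9 TPM, and Fut8-201 are separated by genotype, and the remaining 4 overlap.

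Within Fut8, Fut8-202 kept the main share of the TPM in every mouse, with 73.2, 65.4 and 64.2% in Tet2+/+ and 68.1, 68.6 and 76.6% in Tet2-/- mice (exact permutation p = 0.5). Fut8-207 held 15.3, 18.6 and 18.8% against 19.02, 8.88 and 11.8% (exact permutation p = 0.4). Fut8-203 held 0, 3.82 and 4.36% against 6.39, 10.6 and 5.45%, and Fut8-206 held 0.957, 0.547 and 0.684% against 1.81, 2.75 and 1.51%. The shares of the latter pair were higher in every Tet2-/- mouse (exact permutation p = 0.1 for each, the smallest possible). Of 51010 transcripts in genes with at least 2 of them, 5.17% had a share higher in every Tet2-/- mouse and 6.59% a share lower in every one. Together the 3 coding transcripts made up 79.2 to 80.8% and 78.9 to 87.7% of the Fut8 TPM, so the sum of coding transcripts moved with the gene, from 27.2 ± 11.4 to 10.9 ± 0.443 TPM.

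The split between these transcripts is an estimate. Of the 31-base words in Fut8-202 none was absent from the other Fut8 transcripts. Fut8-207 had 88 unique words of 2049, Fut8-203 80 of 2950, Fut8-201 349 of 3328 and Fut8-206 3187 of 3524. Of these words, 5 of Fut8-207, 23 of Fut8-203, 0 of Fut8-201 and 183 of Fut8-206 also occurred in other genes. In all 5.99% of the Fut8 words also occurred in other genes, most often Gm45740, and those of Fut8-202 rarely (24 of 2735). The opposite-strand transcript 9530018F02Rik shares 75 exonic bases with Fut8 (0.949%), and the library kit did not mark strand, so reads there cannot be told apart. Summing coding transcripts alone left the Fut8 log2 fold change at -1.26.

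In the other genes the leading transcript was also compared by share. Pofut1-201 held 72.7, 72.3 and 72.0% of the Pofut1 TPM in Tet2+/+ and 83.2, 81.8 and 84.9% in Tet2-/- mice, without overlap, while its level overlapped (3.76 to 5.38 against 2.66 to 5.07 TPM). Slc35c1-202 held 40.9, 42.7 and 44.1% against 50.2, 59.7 and 45.8%, again without overlap and with overlapping levels (7.12 to 10.3 against 7.59 to 12.2 TPM). Thus 2 of the 7 genes with several transcripts above 0.1 TPM other than Fut8 had a leading share that was higher in every Tet2-/- mouse, beside the 5.17% of transcripts given above. The leading share overlapped for Fut7-205, Fut11-201, Pofut2-201, Gmds-201 and Fpgt-201, and Fut4 has 1 transcript. Fut7-205, a processed transcript without a coding sequence, held 42.8 to 66.2% of the Fut7 TPM but averaged 5.96% of the Fut7 reads in Tet2+/+ and 6.74% in Tet2-/- mice.

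**Figure D4:**
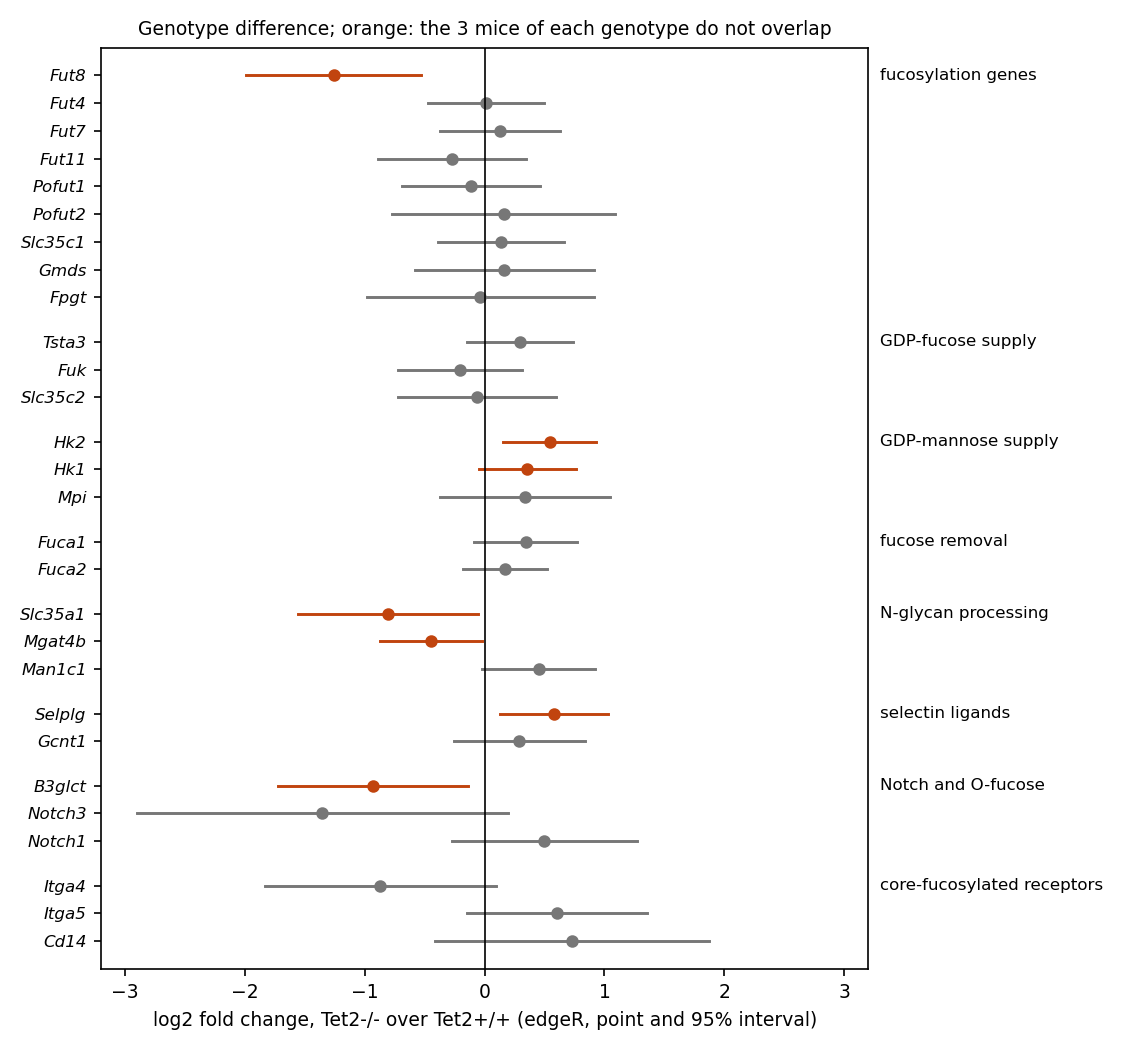
Log2 fold change between genotypes (Tet2-/- over Tet2+/+, edgeR, bars 95% intervals, n = 3 mice each) of the 9 tested fucosylation genes and of genes named from each related list by their small unadjusted p. Orange marks genes whose mice do not overlap. Fut8 lies at -1.26, and no gene shown passed the adjusted threshold.

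Around the 10 genes, 8 lists of the pathway were read the same way, and 0 of the 73 tested genes they add passed the adjusted threshold in edgeR or DESeq2 (at an unadjusted p below 0.05 in edgeR, 3 were lower and 2 higher, against 5.12% and 3% of all genes). In GDP-fucose supply, 6 of 6 genes were tested and none had an unadjusted p below 0.05. Tsta3, which completes de novo synthesis, was at 44.6, 41.1 and 32.0 CPM against 54.6, 43.9 and 46.2 CPM, and Fuk, which opens salvage, at 51.0, 49.95 and 54.9 CPM against 58.6, 34.5 and 41.9 CPM. Slc35c2, a transporter-like protein that promotes O-fucosylation of Notch, had a log2 fold change of -0.07 (SE 0.28).

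Of the 9 GDP-mannose supply genes 2 hexokinases, Hk1 and Hk2, were higher in every Tet2-/- mouse and the other, Hk3, overlapped (log2 fold change 0.18, SE 0.33), while 8.24% of all genes averaging 1 CPM or more were higher in every one. Hk2 was at 92.8, 84.1 and 68.6 CPM in Tet2+/+ and at 118, 123 and 116 CPM in Tet2-/- mice (log2 fold change 0.54, SE 0.17, unadjusted p = 0.0132 and adjusted p = 0.51 in edgeR). Hk1 was at 166, 124 and 142 against 186, 198 and 170 CPM (0.36, SE 0.17). By TPM the genotypes overlapped for Hk1 (26.3 to 30.95 against 30.04 to 34.4). Mpi, which turns fructose 6-phosphate into mannose 6-phosphate, also overlapped (0.34, SE 0.30). The list's median log2 fold change was 0.26. The fucosidases Fuca1 (0.34, SE 0.18) and Fuca2 (0.17, SE 0.15), which remove fucose, overlapped.

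Among 20 tested N-glycan processing genes 2 had an unadjusted p below 0.05, both lower, against 5.12% of all genes. Slc35a1, the CMP-sialic acid transporter, was at 18.2, 21.0 and 20.3 CPM against 15.5, 6.69 and 11.7 CPM (log2 fold change -0.81, SE 0.32, adjusted p = 0.604). Mgat4b, which starts an antenna of complex N-glycans, was at 38.5, 54.8 and 47.7 CPM against 33.0, 34.6 and 35.7 CPM (-0.45, SE 0.18). Man1c1, a Golgi mannosidase, overlapped (0.45, SE 0.20), and the median of the list was 0.14.

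Of the 14 tested genes for selectin ligands, Selplg, the protein backbone of the P-selectin ligand PSGL-1 that carries sialyl Lewis x, was higher in every Tet2-/- mouse, with 234, 229 and 187 CPM against 369, 325 and 276 CPM (log2 fold change 0.58, SE 0.19, unadjusted p = 0.019 and adjusted p = 0.544 in edgeR). Selplg was the 1 gene higher in every Tet2-/- mouse among the 13 averaging 1 CPM or more, against 8.24% of all such genes. Gcnt1, the core 2 branching enzyme (0.29, SE 0.23), overlapped. The median was 0.16.

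In the list of Notch and O-fucose genes, 15 of 17 were tested and 1 had an unadjusted p below 0.05, as lower, against the same 5.12%. B3glct, which caps the O-fucose that Pofut2 places on thrombospondin repeats with glucose, was at 9.75, 10.0 and 5.77 CPM against 5.16, 3.47 and 4.72 CPM (log2 fold change -0.93, SE 0.34, adjusted p = 0.588), lower in every Tet2-/- mouse. The receptors Notch3 (-1.35, SE 0.66) and Notch1 (0.50, SE 0.33) overlapped. Among 10 tested receptors known to carry core fucose, none had an unadjusted p below 0.05. Itga4, the integrin α4 chain, was at 368, 589 and 422 CPM against 156, 179 and 419 CPM, where mouse 8 alone reached the Tet2+/+ range (-0.87, SE 0.41). Itga5 (0.60, SE 0.32) and Cd14 (0.73, SE 0.49) overlapped.

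Genes near Fut8 were then read for whether the place as a whole differed. Within 1000 kb of either end, 48 genes were annotated and 23 tested. None passed the adjusted threshold in edgeR and 1, Gm35189, did in DESeq2 on the same counts, which called 1.8% of genes lower. In edgeR 2 had an unadjusted p below 0.05, both lower, against 5.12% of all genes (Gm35189 and Gphn, the latter above 1 CPM in mouse 24 only), 19 had a fold change below 0 and 4 above, with 49.9% of all tested genes below 0, and the median was -0.21 against 0.00. Of the 17 averaging 1 CPM or more, 2 had lower values in every Tet2-/- mouse and 0 higher, against the 7.71% and 8.24% of all such genes. The long noncoding RNA 9530018F02Rik, which runs from the Fut8 promoter on the opposite strand, was at 2.99, 2.68 and 2.32 CPM against 1.46, 1.41 and 1.79 CPM (log2 fold change -0.78, SE 0.35, adjusted p = 0.638). The noncoding RNA Gm35189, 196 kb before Fut8, was at 13.1, 22.5 and 29.0 CPM against 7.62, 5.14 and 1.57 CPM (-2.16, SE 0.58, adjusted p = 0.434). These were the pair without overlap.

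The protein-coding neighbours overlapped. Max, the partner of MYC proteins 276 kb before Fut8, was at 133, 91.4 and 114 CPM against 134, 204 and 80.6 CPM. Fntb, the farnesyltransferase β subunit 317 kb before it, had a log2 fold change of -0.28 (SE 0.26). Churc1 (-0.13, SE 0.25), Sptb (0.24, SE 0.53), Plekhg3 (0.42, SE 0.25), Hspa2 (-0.18, SE 0.36), Zbtb1 (-0.21, SE 0.17), Zbtb25 (-0.33, SE 0.34) and Mthfd1 (0.16, SE 0.38) lay further off. Gphn, 750 kb after Fut8, was at 7.32 CPM in mouse 24 and at 0.217 to 0.910 CPM in the remaining 5 mice, so its log2 fold change of -2.49 (SE 1.04) came from 1 library. The noncoding or unclassified gene models A430103D13Rik (-0.53), Gm10451 (-0.34), Gm47218 (-0.05), Gm48177 (-0.09) and Gm35240 (-0.02) overlapped.

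**Figure D5:**
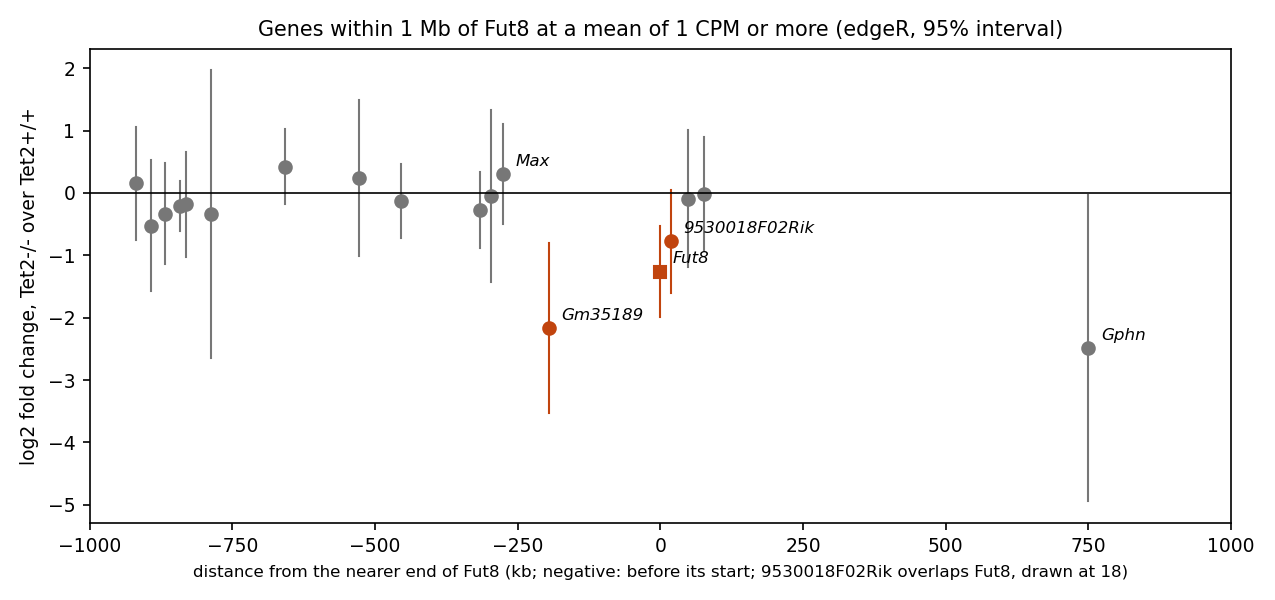
Log2 fold change (Tet2-/- over Tet2+/+, edgeR, bars 95% intervals) of Fut8 (square) and of 17 neighbours averaging 1 CPM or more, by distance in kb from the nearer end of Fut8. Orange marks genes whose mice do not overlap: Gm35189 at -2.16, Fut8 at -1.26 and 9530018F02Rik at -0.78.

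Finally, the genes most like Fut8 across the 6 libraries were sought by the root mean square difference of centred log2 CPM, among 11673 protein-coding genes. They were Parp8, an ADP-ribosyltransferase (0.157), the homeobox gene Pbx4 (0.158), the checkpoint clamp gene Rad9b (0.175), the receptor gene Klrc1 (0.190) and the transcription regulator gene Tsc22d1 (0.199). Parp8 was at 110, 190 and 190 CPM against 85.7, 73.6 and 80.6 CPM, and like Fut8 had its lowest Tet2+/+ value in mouse 19. Being chosen for this likeness, the 5 genes support nothing about genotype. Of the fucosylation genes Fut11 came nearest (0.520, rank 654) and Pofut2 was farthest (0.842, rank 7094).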

How the data were processed

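RNA of 6 sorted blast samples was sequenced with an unstranded kit, and the authors quantified it with Salmon 0.12.0 against mouse transcripts (GRCm38.p6). The deposited files give an estimated count and a TPM for each of 136288 transcripts. Transcripts without a gene (112, 0.0307 to 0.0416% of reads) were left out. Estimated counts were summed per gene and rounded, genes with a normalized count sum under 10 were dropped, and genotypes were compared with edgeR 4.0.16 (TMM, quasi-likelihood test, Benjamini-Hochberg over all genes, R 4.3.3). The biological coefficient of variation was 43.6%. Transcript TPM, as the authors deposited it, was tested with limma 3.58.1 on log2(TPM + 1) at a mean of at least 0.1 TPM. TPM differences on this scale understate changes of low transcripts. DESeq2 1.42.0, length-scaled values, other factors and filters, and leaving out each mouse were alternatives. Scripts were tested on simulated data with less spread than these libraries and changes larger than that of Fut8. That test checks the code and not how small a change can be found here. Python 3.11.15 with pandas 2.3.3 and matplotlib 3.10.9 made the summaries and figures.

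Named were all 10 genes, the 3 smallest unadjusted p of each list at 1 CPM or more, genes within 1000 kb of Fut8 at 1 CPM or more, the 5 genes most like Fut8, every Fut8 transcript at 0.1 TPM or more and the leading transcript of each other gene. A gene that this rule names is not reported here. Genes and lists were chosen with earlier results of these data known. Each mouse is 1 library, and spread within a genotype joins biological and technical error.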

Additional observations from a re-analysis of the deposited data

How the results depend on the processing

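The Fut8 log2 fold change was negative in all 14 alternatives, from -1.55 to -1.08. It was called by DESeq2 on the same counts (-1.25, adjusted p = 0.0266) and on length-scaled values (-1.26, adjusted p = 0.0369), which made 1 of the 10 fucosylation genes pass each time, and the cause was not tested. In edgeR its adjusted p ranged from 0.106 without mouse 19 to 0.902 without mouse 24. Leaving out 1 mouse at a time moved the fold change between -1.55 (without mouse 19) and -1.08 (without mouse 24). Over all genes, 384 passed with DESeq2 on the same counts, 389 with DESeq2 on length-scaled values, 5 with edgeR on length-scaled values and 66 without a filter, against 10, and 0 to 7 with 1 mouse left out (0 without mouse 5, 7 or 8, 1 without mouse 24 and 2 without mouse 23).

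Without the transcript Fut7-205, left out after seeing the data, Fut8 made up 53.7% (Tet2+/+) and 34.4% (Tet2-/-) of the fucosyltransferase TPM, from 47.97% and 28.1%.

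The sign of several small differences turned. Scaling by library size alone shifted the median of all genes to -0.17 and gave -0.17 for Fut4, -0.050 for Fut7 and -0.038 for Slc35c1. Fut4 was also at -0.012 with DESeq2 on length-scaled values, -0.015 with edgeR on length-scaled values and -0.0093 with the filterByExpr filter. With 1 mouse left out at a time, the ranges that crossed 0 were -0.10 to 0.14 for Fut4, -0.26 to 0.095 for Pofut1, -0.25 to 0.49 for Pofut2, -0.053 to 0.28 for Slc35c1, -0.076 to 0.41 for Gmds, -0.29 to 0.21 for Fpgt, -0.50 to 0.26 for Fut8-203 and -0.0048 to 0.073 for Fut8-206. Fut8-203 came to 0.56 with a pseudocount of 0.1. The other Fut8 transcripts kept their direction, but their sizes moved. With a pseudocount of 0.1 and with edgeR on transcript counts, Fut8-204 came to -1.39 and -2.63 (from -0.38), Fut8-201 to -1.95 and -2.13 (from -1.26) and Fut8-207 to -1.70 in both (from -1.31). Of the 6, 0 passed the threshold under any alternative.

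No paired analysis was possible because the genotypes share no mouse number. With 3 mice a genotype, fold changes of up to about the intervals given above cannot be seen, and Fut10 was at the detection limit in every library.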
